A study of Bos taurus with 11 samples.

Results

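The genes described here are 10 genes of sphingolipid synthesis and turnover: SPTSSB, SPTLC1, SPTLC2, SPTLC3, DEGS1, DEGS2, SPHK1, SPHK2, SGPL1 and UGCG. They are 10 of the 25427 gene names on the array and were found there by name, except SPTSSB, which is annotated under the older name C3orf57 and was taken as probe A_73_P305401. They had 21 of the 43653 non-control probes, each an oligonucleotide of 60 bases. Of these, 18 passed the scanner's flag for signal well above background in 5 or more of the 11 cows and entered the tests. SPTSSB was chosen on its difference between the groups, so its difference is described without a test. The comparison with the rest of the array for the other genes is also a description, because results of the same arrays were known when the set was drawn up.

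Endometrial biopsies were taken on day 7 of the oestrous cycle from 11 Bos taurus cows, and total RNA was hybridised to 1-colour arrays, 1 array for each cow. The subfertile group held 5 cows in which 3 transfers of an embryo or inseminations in a row had failed, although no defect of the genital tract was found and their cycles appeared normal. The 6 fertile cows had become pregnant within 3 such attempts, and did so again at the first transfer after the biopsy. None of the cows is labelled as treated, and a biopsy holds the epithelium, stroma, vessels and immune cells of the tissue together. In such bulk tissue, fewer cells of a type and less RNA per cell cannot be told apart.

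Sphingolipids are built on a long-chain base that serine palmitoyltransferase makes from serine and a fatty acyl-CoA. The base is acylated and desaturated to ceramide, which is turned into sphingomyelin or glycosphingolipids or broken down to sphingosine. Sphingosine kinases phosphorylate sphingosine to sphingosine-1-phosphate (S1P), a ligand of cell-surface receptors, and S1P lyase ends the pathway by cleaving it. In the pregnant mouse uterus, sphingosine phosphorylation is known to be needed for normal decidual vessels.

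The levels below are log2 processed signals minus the 75th percentile of the same array, so 0 is the level that 75% of the spots on an array lie under. Levels of different probes are not compared, since each probe has its own brightness. All differences are subfertile minus fertile on this log2 scale. Tests are limma's, with Benjamini-Hochberg adjustment over all 31877 probes tested and a threshold of 0.05. Over the whole array 22.2% of tested probes passed, 14.8% higher and 7.38% lower in subfertile cows.

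The arrays of the groups differed before any gene was considered. The median processed signal lay between 54.3 and 92.7 on the subfertile arrays and between 161 and 452 on the fertile arrays. Between 64.5% and 74.2% of probes were well above background on the subfertile arrays, against 72.0% to 77.4% on the fertile arrays. The subfertile arrays came from 3 slides and 1 scan day, and the fertile arrays with a known slide from 3 other slides and 3 other days. With 0 slides and 0 days shared, a slide or day and the group cannot be told apart. The differences also followed the base composition of the probes. The median difference was -0.10 over probes with 30 to 40% of G and C bases, 0.09 at 40 to 50%, 0.32 at 50 to 60% and 0.40 at 60 to 70%.

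SPTSSB encodes a small activating subunit of serine palmitoyltransferase, known in human and mouse to widen the enzyme's choice towards longer acyl-CoAs. The probe of the set lies at chr1:107915545-107915604, plus strand, of the Btau_3.1 assembly named in the array's annotation, and begins at base 1230 of the transcript NM_001110774. A second probe, A_73_117925, carries the same accession and begins at base 1612, at chr1:107915927-107915986, but its name in the files left it out of the set. Part of each is shown because the 2 probes of 1 transcript differed in how many cows gave a signal. Bases 31 to 60 of the first hold a run of 6 G, in capitals, while bases 1 to 30 of the second hold none. Bases 31 to 60 of the second are not shown, so the printed stretch does not speak for the whole of it.
A_73_P305401: ctcagtggagaGGGGGGtagggatcatata
A_73_117925: tttcaaggagaactagagggaaagatgttt
A run of 6 or more G occurred in 0.575% of all probes. Among the 205 tested probes with one, the median difference was 0.27, with 29.3% called higher and 1.46% lower. These probes were not matched for base composition. All tested probes of 50 to 60% G and C had a median of 0.32, with 29.2% called higher and 1.81% lower. At exactly 45%, the share in A_73_P305401, the values were 0.11, 15.2% and 4.12%. What part the run of G had was not tested.

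On probe A_73_P305401, SPTSSB stood at -4.36, -4.29, -4.14, -4.26 and -3.94 in subfertile cows 1 to 5, and it was well above background in each. In the fertile cows it ran from -7.34 through a median of -6.88 to -5.88, and it was well above background in 2 of 6, cows 2 and 4. The lowest subfertile cow stood above the highest fertile cow, with a narrow band in the subfertile group and a wide one in the fertile group. The means were -4.20 ± 0.17 (SD, n = 5) and -6.77 ± 0.53 (SD, n = 6), a difference of 2.57. Since 4 of the 6 fertile values were not above background, the size of this difference is loosely set. Groups that did not overlap, with subfertile cows higher, were found for 9.65% of tested probes, and for 3.73% of the 4746 that were below background on at least 1 array.

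The separation was present after scaling between arrays and absent before it. Before scaling, the processed signals were 40.9, 31.1, 34.6, 35.8 and 33.6 in subfertile cows 1 to 5. The fertile signals ran from 11.4 through a median of 25.9 to 47.6. The groups overlapped on this scale: fertile cows 2 and 4 were brighter than every subfertile cow, and the other 4 fertile cows were dimmer. The mean log2 difference of the unscaled signals was 0.55, while the 75th percentile of the arrays differed by -2.02. These percentiles lay between 519 and 837 on subfertile arrays and between 1549 and 4359 on fertile arrays. Another background correction, normexp, fits a model of the background and here adds an offset of 50 to each signal. That offset is larger than every processed signal of this probe. With normexp the difference of SPTSSB was 1.90, and that of the median probe was 0.33.

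The second SPTSSB probe was too dim to be tested, being well above background in 2 of 5 subfertile and 2 of 6 fertile cows. Its levels were -5.10, -7.23, -4.86, -7.38 and -5.62 in subfertile cows 1 to 5, and -7.77 to -5.09 with a median of -7.15 in the fertile cows. The groups overlapped, with 4 of 6 fertile cows inside the subfertile range, and the means differed by 0.81. Unscaled, the mean log2 signal differed by -1.21. With 7 of 11 cows at background, this probe gives no order of the cows and no size for the difference.

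**Figure D1:**
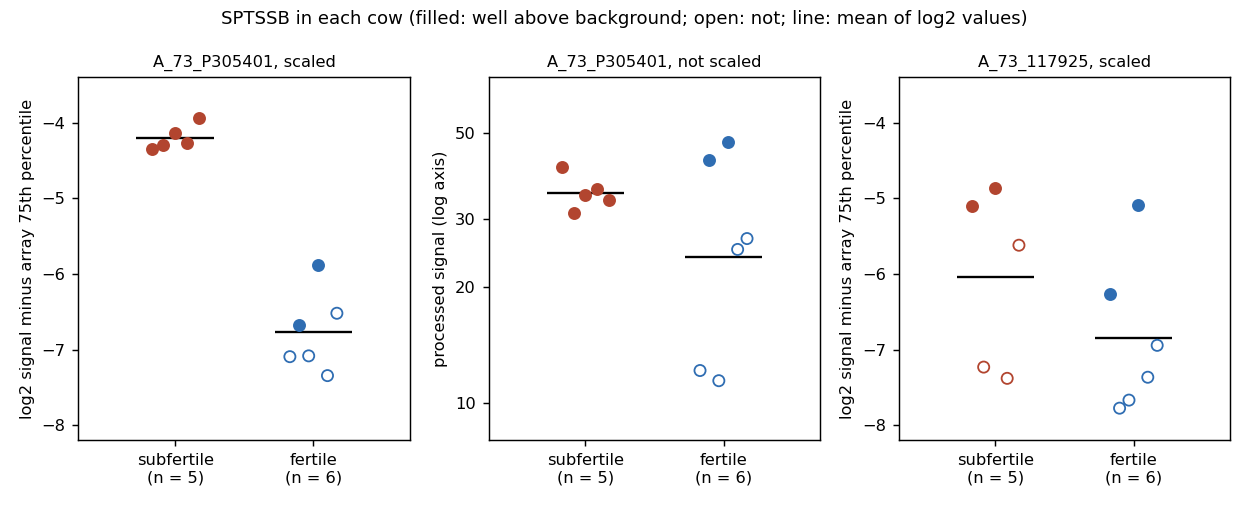
SPTSSB in each cow, subfertile left and fertile right. The left panel gives the scaled log2 level of probe A_73_P305401, the middle panel its processed signal before scaling on a log axis, and the right panel the scaled log2 level of probe A_73_117925; filled points are well above background and lines are means of log2 values. The groups separate in the left panel, from -4.36 upwards in subfertile cows and from -5.88 downwards in fertile cows, and overlap in the other panels.

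SPTSSB is expressed in many epithelia, and 10 of 17 epithelial markers tested were called higher in the subfertile biopsies. Of 19 listed epithelial genes 17 were tested, all 17 were well above background on every array, 10 were called higher and 0 lower (limma with Benjamini-Hochberg adjustment; 12 and 0 at an unadjusted p under 0.05), beside 14.2% called higher over the brightest probes of all gene names, and the median difference was 0.54. The other 7 did not pass, among them CLDN7 at -0.04, MUC1 at -0.08 and GRHL2 at 0.03. The mean of the list, taken on genes centred over the 11 cows, lay between 0.01 and 0.48 in subfertile cows and between -0.74 and -0.01 in fertile cows. Of the ciliated epithelial markers 4 of 8 were called higher. Of the stromal markers 2 were called higher and 3 lower among 11 tested, and endothelial markers were called higher in 2 of 8. Among smooth muscle markers 1 of 6 was called, higher, and among leukocyte markers 2 of 8, 1 in each direction. Median differences were 1.17 for ciliated epithelium, 0.78 for smooth muscle, 0.19 for endothelium, -0.32 for stroma and -0.37 for leukocytes. All 8 ciliated, all 6 smooth muscle and 15 of the 17 epithelial markers had differences above 0. Slide, scan day and GC alternatives are not given for these markers. What part the mix of cell types had in the level of SPTSSB was not tested.

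The probes whose levels moved most like SPTSSB within the groups, after each group's mean was taken out, were those of TPX2, CDC25C, CTNNB1, CDCA2 and TNPO3. Pearson's r with A_73_P305401 was 0.91, 0.91, 0.89, 0.88 and 0.87 over the 11 cows, the highest among 27131 probes that were above background on every array. These correlations rest largely on the fertile group: r lay between 0.90 and 0.99 over the fertile cows and between -0.42 and 0.92 over the subfertile cows. Without fertile cow 4, which had the highest SPTSSB level of its group, r lay between 0.68 and 0.75. Their own differences lay between -0.61 and 0.31. All 11 values come from dim spots of SPTSSB, so the order of these genes is a description only.

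Among the other 9 genes 17 probes were tested and 4 were called, which is 23.5%, beside 22.2% of all tested probes. They were 2 probes of SPHK2, which rose, and 1 probe each of SPHK1 and UGCG, which fell. The median difference of the 17 probes was -0.08, beside 0.07 over all tested probes, with 7 above 0 and 10 below. For 1 of the 17 the groups did not overlap, beside 13.5% of all tested probes. The share called is close to that of the array as a whole, and 3 of the genes had probes with differences of opposite sign. With normexp 9 of the 17 were called, as were 53.6% of all tested probes; the gains were the dimmer SPTLC2 probe (1.03, adjusted p = 5.3e-05), SPHK2 A_73_P351056 (1.29, adjusted p = 1.4e-05), SGPL1 A_73_P436651 (0.46, adjusted p = 0.00582), UGCG A_73_114584 (0.58, adjusted p = 0.00293) and SPHK1 A_73_P465378, whose sign turned.

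**Figure D2:**
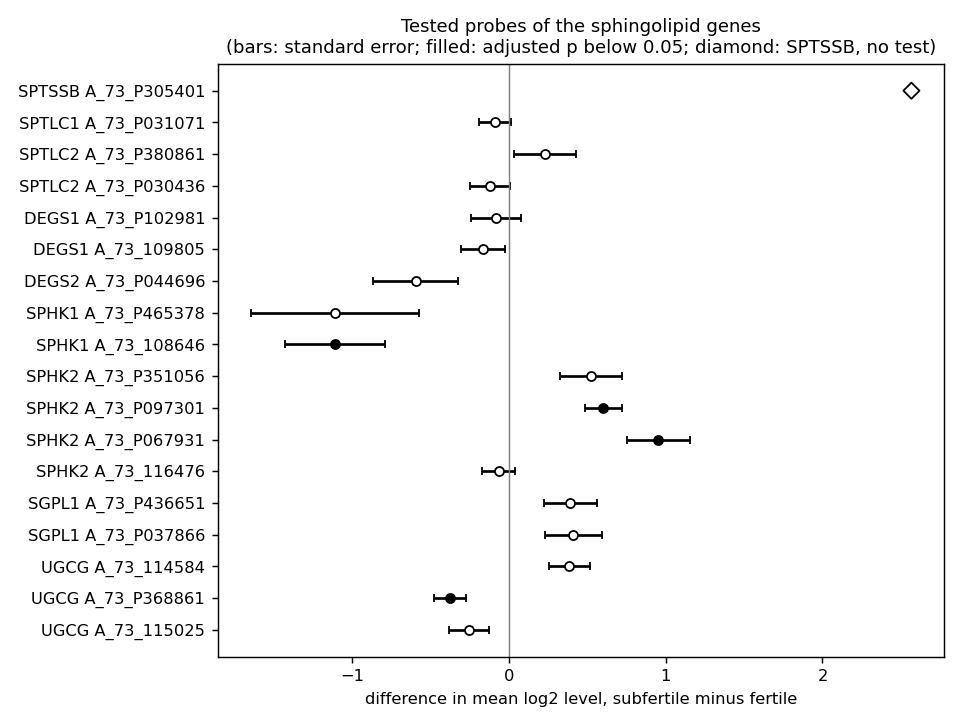
Difference in mean log2 level, subfertile minus fertile, for the 18 tested probes. Bars are standard errors from limma, filled points passed the threshold of 0.05 after adjustment, and the diamond is SPTSSB, for which no test is given. SPHK1 lies at about -1.11 on both probes, whereas probes of SPHK2 and of UGCG lie on both sides of 0.

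The large subunits of serine palmitoyltransferase showed no called change in the limma fit, although 1 dim SPTLC2 probe was called with normexp. SPTLC1, the subunit shared by all forms of the enzyme, stood at 1.34, 1.10, 1.20, 1.33 and 1.27 in subfertile cows 1 to 5, and from 1.08 to 1.50 with a median of 1.38 in fertile cows. The subfertile values lay within the fertile range, and the difference was -0.09 ± 0.10 (SE; adjusted p = 0.569). SPTLC2, a catalytic subunit, had 2 probes with differences of 0.23 ± 0.20 (adjusted p = 0.422) and -0.12 ± 0.13 (adjusted p = 0.532). The first of these spans 1757 bases of genome on chromosome 10 with its 60 bases, so it crosses an exon junction, and it was dim, between -4.94 and -4.60 in subfertile cows and between -5.75 and -4.63 in fertile cows. SPTLC3, the catalytic subunit known in human for making shorter bases, was well above background on 0 of 11 arrays and was not tested. 

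The desaturases also showed no called change. DEGS1 makes ceramide from dihydroceramide, and its 2 probes differed by -0.08 ± 0.16 (adjusted p = 0.756) and -0.16 ± 0.14 (adjusted p = 0.430). On the brighter probe the subfertile cows stood between 0.88 and 1.16 and the fertile cows between 0.81 and 1.51. DEGS2 adds a hydroxyl group to make phytoceramide, a form known from skin, gut and kidney. It stood at -1.20, -1.41, -1.43, -0.95 and -1.19 in subfertile cows 1 to 5. In the fertile cows it ran from -1.45 through a median of -0.45 to 0.02. The subfertile cows lay below the fertile median in every case, but fertile cows 3 and 6, at -1.40 and -1.45, were as low as the lowest subfertile cows. The difference of -0.59 ± 0.27 did not pass (adjusted p = 0.135), and it was -0.84 with an adjusted p of 0.0464 when the trend with GC content was removed.

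SPHK1 encodes the sphingosine kinase that growth factors and cytokines are known to activate, and it was lower in subfertile cows. On the brighter probe, A_73_108646, it stood at 0.28, 0.41, 1.35, 1.49 and 0.39 in subfertile cows 1 to 5, and from 1.06 through a median of 2.06 to 2.46 in fertile cows. Subfertile cows 3 and 4, which lie on different slides, reached into the fertile range, while the other 3 lay below every fertile cow. The difference was -1.11 ± 0.32, a mean level of 0.78 ± 0.59 (SD, n = 5) in subfertile and 1.89 ± 0.58 (SD, n = 6) in fertile cows (limma, Benjamini-Hochberg adjusted p = 0.0288). This call is fragile. It was lost when any 1 of 7 cows was left out (subfertile 1, 2 or 5, fertile 1, 3, 4 or 5), with adjusted p up to 0.0725, while the difference in those fits stayed between -1.10 and -0.98. It was also lost when slide (-1.10, adjusted p = 0.106) or scan day (-1.07, adjusted p = 0.223) entered as a random block, with the difference nearly as large. With the GC trend removed the difference was -1.43 (adjusted p = 0.0130).

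The second SPHK1 probe, A_73_P465378, spans 291 bases of genome and was dim. It stood at -5.32, -5.39, -4.53, -3.98 and -7.52 in subfertile cows, the last of them not above background, and from -5.24 to -3.51 in fertile cows. Its difference of -1.11 ± 0.54 was the same in size but did not pass (adjusted p = 0.158). With normexp correction it turned to 0.54 (adjusted p = 0.0280). The offset of 50 in that correction is larger than every subfertile signal of this probe. Its processed signals lay between 2.80 and 43.5 in subfertile cows and between 64.9 and 247 in fertile cows. The direction of this dim probe thus depends on the correction used, and what part the offset had was not tested.

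SPHK2 encodes the other sphingosine kinase, known for a nuclear and mitochondrial location. Its 4 probes, along chromosome 18 from base 55088100 to 55090394, did not move together. A_73_P097301 stood at -3.14, -3.48, -3.29, -3.46 and -3.67 in subfertile cows 1 to 5 and from -4.21 to -3.81 with a median of -4.02 in fertile cows. The groups did not overlap, and the difference was 0.60 ± 0.12 (limma, adjusted p = 0.00578). A_73_P067931 stood at -2.82, -2.79, -2.81, -2.68 and -3.18 in subfertile cows and from -4.35 to -3.04 with a median of -3.81 in fertile cows. Only subfertile cow 5 fell below the highest fertile cow, and the difference was 0.95 ± 0.20 (adjusted p = 0.00803). A_73_P351056, dimmer still, had a difference of 0.52 ± 0.20 that did not pass (adjusted p = 0.0784).

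The brightest SPHK2 probe, A_73_116476, did not follow them. It stood at 1.77, 1.47, 1.39, 1.54 and 1.43 in subfertile cows 1 to 5 and from 1.38 to 1.77 with a median of 1.62 in fertile cows, and the difference was -0.06 ± 0.11 (adjusted p = 0.702). It carries another accession, XM_612394, than the other 3 probes. Its first 30 bases are shown beside the whole of A_73_P067931, with G and C in capitals, because the probes also differ in base composition.
A_73_P067931: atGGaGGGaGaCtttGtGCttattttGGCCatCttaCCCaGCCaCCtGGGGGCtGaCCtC
A_73_116476: GCCCCaatCttCaaaGCaattGaaaaGGtC
The 3 higher probes are each 55% G and C, and the brightest is 45%. Over all tested probes of exactly 55% the median difference was 0.32 and 29.8% were called higher, against a median of 0.11 at exactly 45%. With the GC trend removed, A_73_P067931 kept a difference of 0.63 (adjusted p = 0.0424), while A_73_P097301 had 0.28 (adjusted p = 0.0988). With scan day as a random block neither passed, at 0.99 (adjusted p = 0.0792) and 0.62 (adjusted p = 0.0803).

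**Figure D3:**
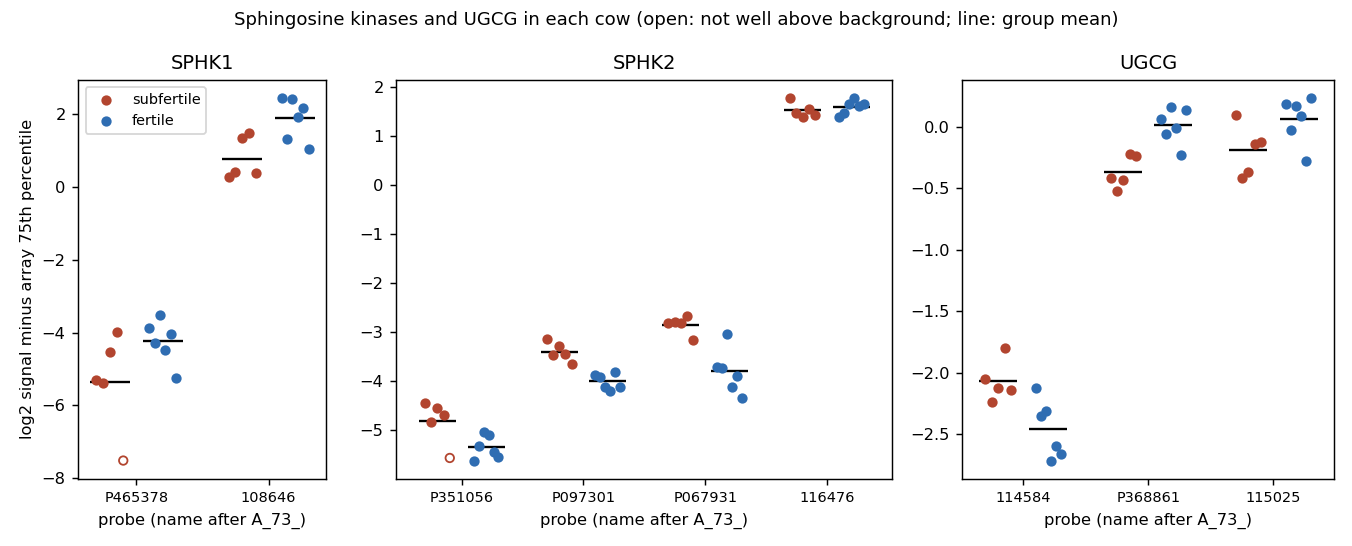
Scaled log2 level of each probe of SPHK1, SPHK2 and UGCG in each cow, subfertile left of fertile within a probe, with probes in transcript order and lines at group means. Open points were not well above background. The SPHK1 probes are lower in subfertile cows, 3 of 4 SPHK2 probes are higher and the brightest, A_73_116476, is level at 1.52 and 1.58, and the first UGCG probe lies opposite to the other 2.

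SGPL1, the S1P lyase, had 2 bright probes with like differences that did not pass, though A_73_P436651 did with normexp. A_73_P037866 stood at 0.996, 0.64, 0.42, 0.48 and 0.42 in subfertile cows 1 to 5 and from -0.35 through a median of 0.30 to 0.54 in fertile cows, a difference of 0.41 ± 0.18 (adjusted p = 0.125). A_73_P436651 differed by 0.39 ± 0.17 (adjusted p = 0.117). All 5 subfertile cows lay above the fertile median on each. The lowest fertile values came from cows 1 and 3, which share a slide: on A_73_P037866 these were -0.18 and -0.35, and cows 2 and 5 of another slide were higher by 0.56 on average, more than the difference between the groups. The remaining 2 SGPL1 probes were well above background on at most 3 arrays of either group and were not tested.

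UGCG, the ceramide glucosyltransferase that begins most glycosphingolipids, had probes that moved in opposite directions. A_73_114584 begins at base 136 of NM_001076850, at chr8:106466045-106466104, and A_73_P368861 begins at base 1275 of the same transcript, at chr8:106502562-106502621 (Btau_3.1, plus strand). The whole of the first and the first 30 bases of the second are shown, with G and C in capitals; the whole probes are 55% and 35% G and C.
A_73_114584: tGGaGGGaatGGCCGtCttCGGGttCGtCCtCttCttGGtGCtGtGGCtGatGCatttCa
A_73_P368861: GCtGaGGaaattCtaGatGtataaCtaCaG
A_73_114584 stood at -2.05, -2.24, -2.12, -1.80 and -2.14 in subfertile cows 1 to 5 and from -2.71 to -2.12 with a median of -2.47 in fertile cows, a difference of 0.39 ± 0.13 just short of the threshold (adjusted p = 0.0542). A_73_P368861 stood at -0.42, -0.52, -0.44, -0.22 and -0.24 in subfertile cows and from -0.23 to 0.16 with a median of 0.03 in fertile cows. It was lower by -0.38 ± 0.10 (limma, adjusted p = 0.0252), with fertile cow 5 alone reaching into the subfertile range. The remaining probe, A_73_115025, also 35% G and C and beginning at base 1392, differed by -0.25 ± 0.13 (adjusted p = 0.177).

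Both directions are those of probes of like composition on the array. At exactly 35% G and C the median difference was -0.12 with 15.9% of probes called lower, and at exactly 55% it was 0.32 with 29.8% called higher. With the GC trend removed the differences were 0.07 for A_73_114584 (adjusted p = 0.763) and -0.25 for A_73_P368861 (adjusted p = 0.106), so no UGCG probe was called. The call of A_73_P368861 was also lost, with the difference nearly the same, when slide (-0.39, adjusted p = 0.0728), scan day (-0.38, adjusted p = 0.178) or the replicate number (-0.35, adjusted p = 0.106) entered as a block. Leaving out fertile cow 1, subfertile cow 2, subfertile cow 3, or fertile cows 1 and 6 together ended it too.

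**Figure D4:**
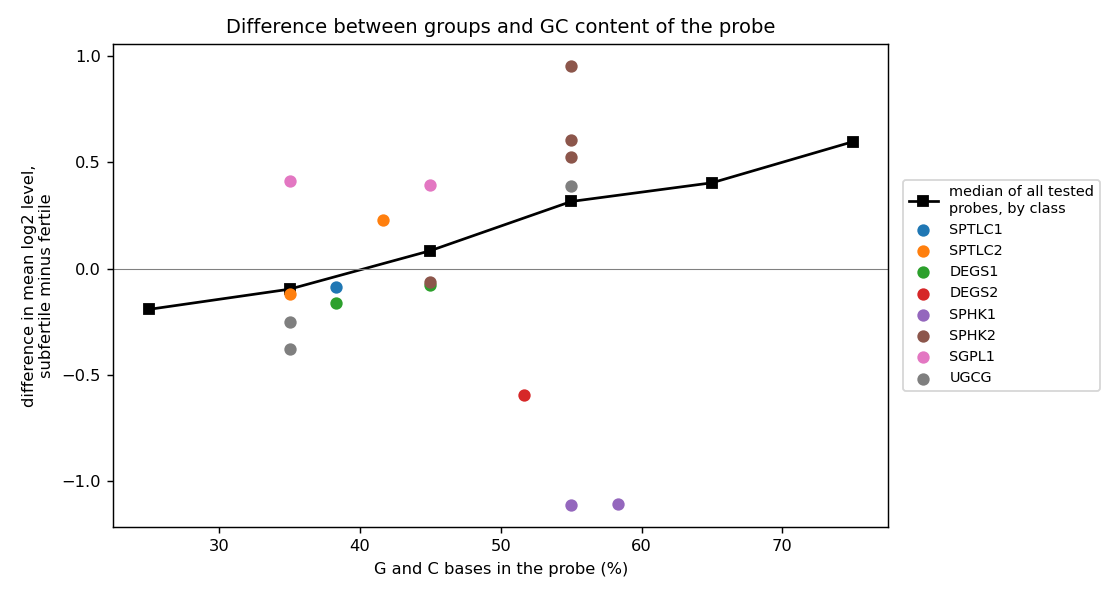
Difference in mean log2 level, subfertile minus fertile, against the share of G and C bases in the probe, for the 17 tested probes other than that of SPTSSB. Black squares join the median difference of all tested probes in classes of 10 percentage points, from -0.19 at 20 to 30% to 0.60 at 70 to 80%. The UGCG probes lie on both sides of 0 in the same order as this line, and SPHK1 and DEGS2 lie below it.

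Around these 10 genes, 63 other genes of sphingolipid metabolism were listed by role, of which 60 were on the array and 52 were tested, each by its brightest tested probe. Of these 8 were called, 5 higher and 3 lower, which is 15.4% beside 22.1% over the brightest probes of all 18505 gene names tested (14.2% higher and 7.88% lower). The median difference of the 52 was -0.03. The clearest of them was CERS2, a ceramide synthase that makes ceramides with very long acyl chains. It stood at 4.39, 4.47, 4.32, 4.24 and 4.39 in subfertile cows 1 to 5 and from 3.60 to 3.87 with a median of 3.65 in fertile cows. The groups did not overlap, and the difference was 0.68 ± 0.09 or 1.60-fold (limma, Benjamini-Hochberg adjusted p = 8.8e-04). All 4 CERS2 probes were called higher, with differences from 0.60 to 0.82, and each stayed called whichever cow was left out. On the brightest probe the call was kept with slide and with scan day as random blocks (adjusted p = 0.00489 and 0.0244) and with the GC trend removed (0.57, adjusted p = 0.00423). With scan day as a block the other 3 probes lost the call, at adjusted p of 0.0837, 0.0791 and 0.0989.

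Of the 10 tested genes of de novo synthesis, CERS2 rose and ORMDL1 fell. ORMDL1 belongs to a family that restrains serine palmitoyltransferase, and its level was -1.29 ± 0.09 (SD, n = 5) in subfertile and -0.78 ± 0.19 (SD, n = 6) in fertile cows, a difference of -0.51 ± 0.11 (adjusted p = 0.00795) without overlap. Its call was kept with slide as a block (adjusted p = 0.0293) but not with scan day (adjusted p = 0.0893). The relatives ORMDL2 and ORMDL3 did not pass, at 0.44 (adjusted p = 0.0923) and -0.29 (adjusted p = 0.216). SPTSSA, the other small subunit of the enzyme, differed by -0.26 (adjusted p = 0.505), and the other ceramide synthases tested, CERS1, CERS4, CERS5 and CERS6, lay between -0.41 and 0.18 with no call. CERS6, at -0.41, turned to 0.87 with normexp (adjusted p = 1.2e-05).

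Of the 10 tested sphingomyelin genes, SGMS1 rose and SMPDL3A fell by brightest probe. A dimmer probe of SMPD2 was also called higher, while its brightest, at 0.26, was not called (adjusted p = 0.202). SGMS1, a sphingomyelin synthase of the Golgi, differed by 0.49 ± 0.11 (adjusted p = 0.0120) on its brightest probe, while its other 2 probes differed by 0.14 and 0.04 and were not called. SMPDL3A, a phosphodiesterase related to acid sphingomyelinase, differed by -0.70 ± 0.20 (adjusted p = 0.0282), but this became 0.57 with normexp correction (adjusted p = 0.0011), and the call was lost in 5 of 11 fits that left out a cow. Of 5 tested genes of ceramide breakdown and ceramide phosphate, ASAH2 and CPTP rose and ACER3 fell. CPTP, a carrier of ceramide-1-phosphate, differed by 0.40 ± 0.10 (adjusted p = 0.0167), with 4 of its 5 probes called higher. With scan day as a block only 1 CPTP probe, A_73_115958, was still called (adjusted p = 0.0342), and the brightest lost its call with slide (0.0628), scan day (0.159) and the GC trend removed (0.0539). ASAH2, the neutral ceramidase, differed by 0.74 ± 0.20 (adjusted p = 0.0215) and ACER3, an alkaline ceramidase, by -0.53 ± 0.16 (adjusted p = 0.0322). Leaving out a cow ended the call of ASAH2 in 2 fits and that of ACER3 in 8. With slide as a block SGMS1 was still called (adjusted p = 0.0437), while SMPDL3A (0.108), ASAH2 (0.0984) and ACER3 (0.116) were not. With scan day as a block none of these 4 was, at adjusted p of 0.124 for SGMS1, 0.246 for SMPDL3A, 0.193 for ASAH2 and 0.241 for ACER3.

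Among 10 tested genes of S1P removal, transport and reception, the receptor S1PR5 alone was called, at 0.61 ± 0.15 (adjusted p = 0.0151). Its probe is 70% G and C, and with the GC trend removed the difference was -0.03 (adjusted p = 0.903). The call was also lost with scan day as a block (adjusted p = 0.120). S1PR2, another S1P receptor, stood at 2.77, 1.53, 1.39, 2.45 and 0.55 in subfertile cows 1 to 5 and from 2.22 to 3.39 in fertile cows, and its difference of -1.08 ± 0.37 did not pass (adjusted p = 0.0569). With normexp S1PR2 was called, at -1.13 (limma, adjusted p = 0.0174). None of 6 tested genes of glycosphingolipid synthesis and none of 11 of lysosomal breakdown was called by limma after adjustment, although 3 and 3 had an unadjusted p under 0.05. By brightest probe, the smallest p in the glycosphingolipid list belonged to GAL3ST1, which makes sulfatide, at 1.08 (adjusted p = 0.0781), and GLTP, a glycolipid carrier, at -0.36 (adjusted p = 0.0805). In the lysosomal list it belonged to the alpha-galactosidase GLA at -0.35 (adjusted p = 0.0723) and the saposin precursor PSAP at 0.28 (adjusted p = 0.0837). With normexp GAL3ST1 was called at 1.42 (limma, adjusted p = 1.3e-05) and GLA turned to 0.47 (adjusted p = 0.00758). GLTP and PSAP were not called with it.

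**Figure D5:**
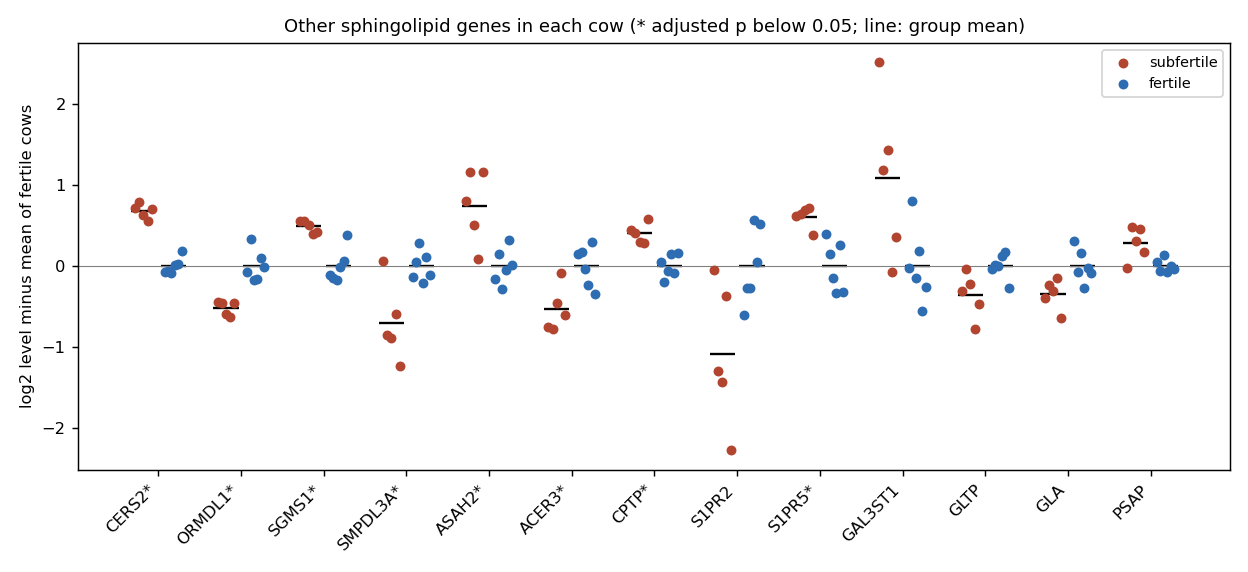
Log2 level minus the mean of the fertile cows for the named genes of the wider pathway, each by its brightest tested probe, subfertile left of fertile. Lines are group means and a star marks an adjusted p below 0.05. CERS2 and ORMDL1 show groups apart with little spread, at differences of 0.68 and -0.51, whereas S1PR2 and GAL3ST1 spread widely among the subfertile cows.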

How the data were processed

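Total RNA of 11 endometrial biopsies was labelled with Cy3 and hybridised to 1-colour Agilent bovine arrays, per the labels' protocols. The deposited scanner files give linear intensity for 45220 spots an array; the submitters' processing notes name Agilent Feature Extraction, version 10.5.1.1. A deposited table of log2 values, scaled and centred by probe, was used as an alternative only; its column for fertile cow 1 lay within 0.01 of that cow's scanner file for 23.6% of probes. The file of fertile cow 6 lacks its header, so its slide and day are unknown, and probe names were taken from the other files.

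Control spots and outlier spots (1 to 156 an array) were left out. The processed signal was taken to log2, and the 75th percentile of each array was subtracted. Probes well above background on at least 5 of 11 arrays were fitted with limma 3.58.1 in R 4.3.3 (group only) with Benjamini-Hochberg adjustment over 31877 probes. A gene of the wider pathway was represented by its brightest tested probe; in each list up to 4 called genes were named, or the 2 of smallest p where fewer than 2 passed. Current symbols came from a gene table of another assembly, used for names only. On simulated data made from these probes the fit found 58% of the 2-fold changes and 89% of the 4-fold changes (100 probes each), and 4 of its 151 calls were false. Whether these rates hold on arrays whose slide and scan day go with the group, as here, was not tested. The genes and lists were chosen with earlier results of these data known. The number of arrays limits the precision. The labels name no pairing of cows with the same number. The correlations of their deviations ran from -0.21 to 0.22, which cannot settle whether they were paired.

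The alternatives were normexp correction (offset 50), quantile normalization, median centring, the authors' table, other filters, slide as a random block, scan day likewise, the replicate number as a block, a threshold of 0.01 and leaving out each cow. Chosen after seeing the data were removal of trends with GC content and brightness within each array, and leaving out fertile cows 1 and 6 together.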

Additional observations from a re-analysis of the deposited data

Results flagged for a closer look

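Of 70 groups of 5 or 6 cows examined on 35 probes, 4 held a cow far from the others by Dixon's criterion, which marks about 5% of groups by chance. On SPHK2 probe A_73_P067931, subfertile cow 5 stood at -3.18, with the other subfertile cows between -2.82 and -2.68. On the dim SGPL1 probe A_73_109450, subfertile cow 1 stood at -5.02, the only subfertile cow above background there, with the others between -6.58 and -6.20. On CERS2 probe A_73_103913, fertile cow 6 stood at 3.87, with the other fertile cows between 3.60 and 3.70, nearer to the subfertile cows. On S1PR5 probe A_73_113314, subfertile cow 5 stood at -3.09, with the others between -2.86 and -2.76.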

How the results depend on the processing

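Against 7067 called probes over the array, 17082 were called with normexp correction, 12179 with no filter, 3672 and 977 when slide and scan day, in turn, entered as random blocks, 2626 at a threshold of 0.01, and 4527 to 7298 with 1 cow left out, the lowest without subfertile cow 2. Against 4 called of 17 probes of the genes other than SPTSSB, 9 were called with normexp, 2 with slide as a block, 0 with scan day as a block (limma; 5 at an unadjusted p under 0.05), 2 at 0.01 and 2 to 5 with 1 cow left out. Against 8 called genes of the wider pathway, 20 were called with normexp, 4 with slide, 1 with scan day and 4 with the replicate number as a block, 5 with the GC trend removed, and 5 to 12 with 1 cow left out (5 without subfertile cow 2 and 5 without subfertile cow 5); counting every tested probe gave 21. Over all tested probes the share called was 22.2% in the main fit and 53.6% under normexp. It was 11.5% under the slide block, 3.06% under the scan day block and 14.9% under the replicate block. Removal of the GC trend gave 15.5%. In each of these settings the count of pathway genes moved in the same direction as the share over the array. The replicate block left 3 calls among the 17 probes, although the labels name no pairing of the cows. SPTSSB differed by 1.90 with normexp and by 2.45 to 2.74 with 1 cow left out, and it is not among probes above background on all arrays. Among probes of the 10 genes, signs turned for SPTLC2 A_73_P030436 (0.0027 with the GC trend removed, 0.026 with GC and brightness), DEGS1 A_73_P102981 (0.0013 with normexp, and -0.17 to 0.03 with 1 cow left out, above 0 only without fertile cow 3) and SPHK1 A_73_P465378 (0.54 with normexp); of these only the last was called, with normexp. Among the 52 genes of the wider pathway 9 turned sign with normexp, 6 of them then called, SMPDL3A on both sides. The cause was not tested. The share of calls that were higher was 66.7%, against 50.8% with quantile normalization, 48.5% with median centring and 87.3% with normexp. Dim signal limits SPTSSB, SPTLC3 and SPHK1 A_73_P465378.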
